A study of Mus musculus with 2 samples.

Results

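The 8 genes described here encode the nuclear factor I transcription factors Nfia, Nfib, Nfic and Nfix and the early B cell factors Ebf1, Ebf2, Ebf3 and Ebf4. They were chosen by name, with earlier results of these data known but with no measured value in the rule, and all 8 were found among the 43346 Ensembl genes and the 21474 protein-coding genes of the deposited tables. The tissue was whole midbrain taken on the day of birth (postnatal day 0) from mice of strain B6NTac;B6NCrl/Lap, with no treatment or engineered allele in the labels, males and females pooled. Replicate 1 was a pool of 15 mice and replicate 2 a pool of unstated size; the labels call them separate isolates of tissue and give both the same donor record. Total RNA over 200 nucleotides, depleted of ribosomal RNA, was sequenced as stranded read pairs, which gave 46685706 counts in replicate 1 and 72779229 in replicate 2. With 1 group of 2 libraries there is no comparison between conditions and no p-value. Each level below is given in both libraries, as TPM (transcript abundance corrected for length and depth), with the SD (n = 2), and that spread may be partly technical.

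NFI proteins bind DNA as dimers at a palindrome whose arms read TTGGC and GCCAA. Nfia and Nfib are known for the switch from neuron to glia production and for astrocyte formation, Nfix for the exit of neural stem cells from the cell cycle, and Nfic outside the brain for tooth root formation. EBF proteins bind DNA through a zinc-containing domain and dimerise through a helix-loop-helix region. Ebf1 is named for its part in B lymphocyte formation, Ebf2 is known in brown fat and in migrating neurons, Ebf3 in neuron differentiation, and Ebf4 is the least studied of the family. In the developing brain EBF genes act downstream of proneural factors in young neurons, and Ebf1 is also known in perivascular and other connective-tissue cells. In bulk tissue, fewer cells of a type and less RNA per cell cannot be told apart.

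Within each family the proteins share a DNA-binding domain, and the genes can be told apart by reads because their coding sequences have diverged. The longest identical run between members of a family was 32 coding bases, in Nfic (chr10:81420686-81420717, minus strand, mm10) and in Nfix (chr8:84772203-84772234, minus strand). The 27 bases shared by Ebf3 and Ebf4 lie across an exon junction in both genes. These stretches are shown with 20 bases on either side, 5′ to 3′ in the sense of the mRNA, and capitals mark the identical run.
Nfic: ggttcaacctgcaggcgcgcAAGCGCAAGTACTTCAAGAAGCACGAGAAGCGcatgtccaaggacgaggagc
Nfix: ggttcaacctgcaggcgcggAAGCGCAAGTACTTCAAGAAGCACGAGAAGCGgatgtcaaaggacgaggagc
Ebf3: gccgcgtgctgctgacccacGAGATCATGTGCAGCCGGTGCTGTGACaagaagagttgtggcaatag
Ebf4: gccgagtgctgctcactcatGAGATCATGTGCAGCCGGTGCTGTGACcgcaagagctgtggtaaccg
In the sense of each RNA, no member shared a stretch as long as 1 read with another member or any other GENCODE M21 gene. No level below is thus marked as uncertain for reads shared in that sense. Stretches shared with genes on the opposite strand were not searched for, and overlapping genes of that kind are given further below.

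The segments that separate the members' transcripts carry much of what follows, and those the results turn on are shown next. Ebf3-204 holds a coding exon of 108 bases (36 codons; chr7:137198582-137198689, minus strand) that Ebf3-201 lacks, and Nfic-201 holds a coding segment of 48 bases (16 codons; chr10:81403381-81403428, minus strand) that Nfic-203 lacks. Both are printed in capitals with 15 bases of the neighbouring exons in lower case.
Ebf3-204: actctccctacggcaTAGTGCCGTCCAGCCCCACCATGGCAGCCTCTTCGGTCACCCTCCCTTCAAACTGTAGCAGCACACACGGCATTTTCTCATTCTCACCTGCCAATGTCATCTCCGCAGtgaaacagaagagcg
Nfic-201: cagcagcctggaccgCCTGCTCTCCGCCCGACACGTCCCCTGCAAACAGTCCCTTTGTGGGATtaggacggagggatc
Alternative first exons separate the Ebf4 and the Nfix transcripts. The first coding exon of Ebf4-203 holds 306 coding bases (chr2:130295264-130295569, plus strand), of which 60 are shown. Ebf4-201 starts instead with 15 coding bases (chr2:130296013-130296027). Nfix-202 starts with 27 coding bases (chr8:84799998-84800024, minus strand) in an exon upstream of the start of Nfix-204. Capitals mark the start codon.
Ebf4-203: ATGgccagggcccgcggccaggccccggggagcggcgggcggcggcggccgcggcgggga
Ebf4-201: ATGttccccgcacag
Nfix-202: ATGtactccccgtactgcctcacccag

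All 8 genes were expressed in the newborn midbrain. Each had a TPM of at least 1 in both libraries, the level used here for detection, where 53.8% of protein-coding genes and 27.7% of all Ensembl genes reached it. The median of the members was 7.18 TPM in replicate 1 and 7.22 in replicate 2. The median of detected protein-coding genes was 7.96 and 6.57, so the members were of ordinary abundance for expressed genes.

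Ebf3 was the highest of the 8, at 19.43 TPM in replicate 1 and 15.04 in replicate 2 (17.2 ± 3.10, n = 2), from 6622 and 9864 estimated counts. Its gene (ENSMUSG00000010476.9) spans 120.773 kb of chr7:137193673-137314445, and its rank was 2558 of 21474 protein-coding genes. Nfib followed at 12.77 and 11.51 TPM (12.1 ± 0.891), rank 3714 (ENSMUSG00000008575.13, chr4:82290173-82705750). The gap between Ebf3 and Nfib was larger than the spread of either between the libraries. Nfix stood at 8.55 and 11.44 TPM (9.995 ± 2.04; ENSMUSG00000001911.12, chr8:84699876-84800344) and Nfia at 9.78 and 9.47 (9.625 ± 0.219; ENSMUSG00000028565.14, chr4:97772734-98118874). Nfix was the lower of the pair in replicate 1 and the higher in replicate 2, so these neighbours were not separated. Nfib and Nfix were nearly level in replicate 2, and their mean gap of 2.145 TPM barely passed the larger SD.

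The remaining 4 genes were lower. Ebf1 was at 5.81 and 4.97 TPM (5.39 ± 0.594; ENSMUSG00000057098.10, chr11:44617317-45008091) and Ebf2 at 5.01 and 3.26 (4.135 ± 1.24; ENSMUSG00000022053.9, chr14:67233292-67430918). Their gap of 1.255 TPM barely passed the larger SD. Ebf4 was at 4.8 and 3.15 TPM (3.975 ± 1.17; ENSMUSG00000053552.10, chr2:130295169-130370481) and Nfic at 3.47 and 3.19 (3.33 ± 0.198; ENSMUSG00000055053.13, chr10:81396186-81455635). Ebf2, Ebf4 and Nfic were not separated beyond their spread, and Ebf4 and Nfic changed places between the libraries. In this order Ebf3 thus led, Nfib, Nfix and Nfia followed, and the other 4 lay within 3.15 to 5.81 TPM.

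**Figure D1:**
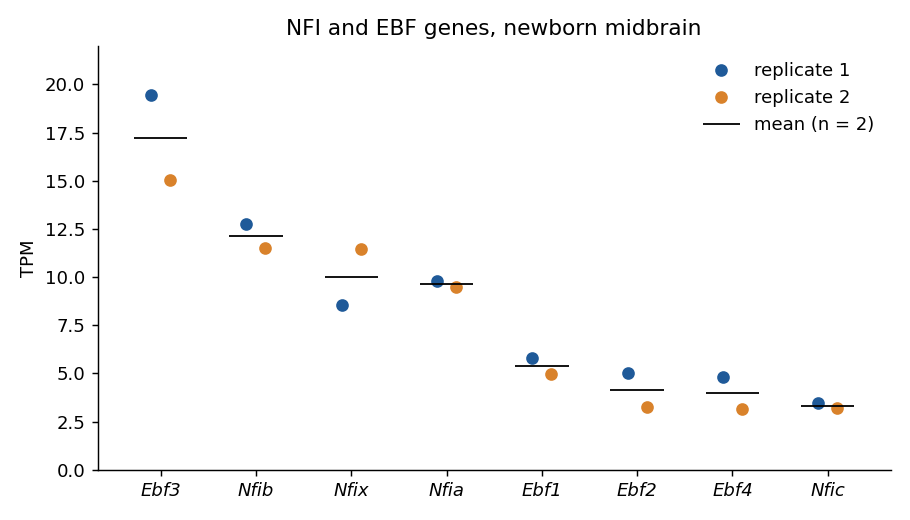
TPM of the 8 genes in each library (vertical axis, linear from 0), with a black line for the mean of 2 libraries. Ebf3 lies above the rest in both libraries at 19.43 and 15.04 TPM, and Nfix is the member that is higher in replicate 2.

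The families were of near-equal abundance when summed. The 4 NFI genes added up to 34.57 TPM in replicate 1 and 35.61 in replicate 2, and the 4 EBF genes to 35.05 and 26.42. The log2 ratio of NFI to EBF was −0.02 and 0.43 (0.21 ± 0.32), which is within the spread between the libraries. The direction turned when only complete protein-coding transcripts were summed (−0.36) and when counts were divided by the length of the joined exons (−0.22), both chosen after the data were seen.

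The families differed in how evenly they were made up. Ebf3 alone held 55.4% of the EBF sum in replicate 1 and 56.9% in replicate 2, and Ebf1, Ebf2 and Ebf4 each held between 11.9% and 18.8%. In the NFI family Nfib held 36.9% and 32.3%, Nfia 28.3% and 26.6%, Nfix 24.7% and 32.1%, and Nfic 10.04% and 8.96%. Nfic was thus the minor NFI gene and Ebf3 the major EBF gene in both libraries.

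Pairs of members were compared inside each library on log2(TPM + 0.1), and a pair was called if both libraries gave 2-fold or more in 1 direction. Of 28 pairs 11 were called. Within the NFI family 3 of 6 were, and each set Nfic below another member: Nfib exceeded Nfic by 1.83 ± 0.02, Nfia exceeded it by 1.505 ± 0.051, and the log2 ratio of Nfic to Nfix was −1.54 ± 0.38. Within the EBF family 3 of 6 were, and each set Ebf3 above another member, with log2 ratios of −1.65 ± 0.10 for Ebf1 to Ebf3, −2.05 ± 0.17 for Ebf2 to Ebf3 and 2.11 ± 0.16 for Ebf3 to Ebf4.

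Across the families 5 of 16 pairs were called. Nfib exceeded Ebf1 by 1.16 ± 0.05, Ebf2 by 1.56 ± 0.32 and Ebf4 by 1.62 ± 0.31, Nfia exceeded Ebf4 by 1.28 ± 0.39, and Nfic lay below Ebf3 with a ratio of −2.33 ± 0.18. The pairs of Nfia with Nfic and with Ebf4 rest on the gene-level TPM of Nfia. On complete protein-coding transcripts Nfia stood at 3.24 TPM in replicate 1 and 3.61 in replicate 2, Nfic at 3.07 and 3.18, and Ebf4 at 4.02 and 2.72, so neither pair reached 2-fold and Nfia was below Ebf4 in replicate 1. No pair among Ebf1, Ebf2 and Ebf4 reached 2-fold in both libraries, nor did any among Nfia, Nfib and Nfix.

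Which transcript models carried each gene decided some of these levels. In the Nfia tables the leading entry by share of TPM was Nfia-207, with 56.35% in replicate 1 and 48.72% in replicate 2. It is a fragment model of 821 bases without an annotated start or end, and it held only 8.94% and 6.81% of the counts of the gene. Among detected genes with at least 4 transcripts the leading transcript was incomplete in 4.41%. By counts the leading Nfia transcript was Nfia-202, a complete model of 9526 bases, with 1671.53 of 2556 and 3389.79 of 5201 counts.

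The level of Nfia on complete protein-coding transcripts alone, 3.24 and 3.61 TPM, compares with gene-level values of 9.78 and 9.47. These complete models held 89.3% and 90.4% of its counts and 33.1% and 38.1% of its TPM. The place of Nfia beside Nfix in the order of TPM therefore depends on how reads were assigned to a short fragment. Ebf3 was the same on either scale, since all 4 of its models are complete, and Nfib fell to 9.33 and 8.89 TPM, Nfix to 5.83 and 7.96 and Nfic to 3.07 and 3.18. On this scale Nfia lay below Ebf1 (4.77 and 4.39) and near Ebf2 (4.8 and 3.06) and Ebf4 (4.02 and 2.72).

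Nfix had the least certain level. The deposited credibility bounds of its gene-level TPM ran from 8.24 to 31.2 in replicate 1 and from 11.1 to 18.7 in replicate 2, a span of 3.79-fold and 1.69-fold, where no other member exceeded 1.47-fold. Its posterior mean was 16.23 and 13.9 TPM (15.1 ± 1.65). On that scale Nfix was above Nfib, which stood at 12.87 and 11.56 TPM. The difference came from Nfix-208, a noncoding model of 234 bases that was listed at 0 TPM in both libraries but took 45.55% and 16.89% of the gene in the posterior mean.

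**Figure D2:**
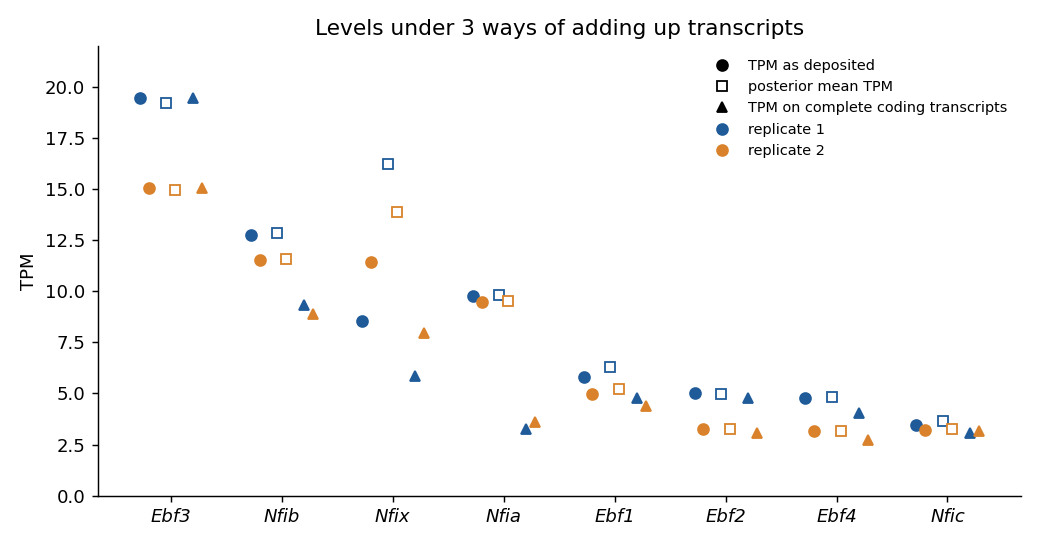
TPM of each member in both libraries (vertical axis, linear from 0) as deposited (circles), as the posterior mean (open squares) and on complete protein-coding transcripts only (triangles). Nfia drops from 9.78 and 9.47 to 3.24 and 3.61 on complete transcripts, Nfix rises to 16.23 and 13.9 in the posterior mean, and Ebf3 hardly moves.

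The start that Ebf4 transcripts were assigned to differed between the 2 libraries. Ebf4-203, which begins at the upstream start, held 80.72% of Ebf4 TPM in replicate 1 and 30.15% in replicate 2, while Ebf4-201, which begins at position 130295939, held 3.22% and 44.96%. In counts, Ebf4-203 went from 802.7 to 364.06 and Ebf4-201 from 28.37 to 480.18, although replicate 2 was the deeper library. The credibility bounds of Ebf4-203 ran from 3.24 to 4.05 TPM in replicate 1 and from 0.711 to 1.25 in replicate 2, and those of Ebf4-201 from 0.000170 to 0.609 and from 0.969 to 1.73. These bounds cover the assignment of reads within a library and not the variation between isolates.

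Summed over all its models, the upstream start carried 80.8% and 30.3% of Ebf4 TPM and the downstream start 19.2% and 69.7%. The first 306 coding bases of Ebf4-203 were thus in 96.3% of complete Ebf4 coding TPM in replicate 1 and in 34.9% in replicate 2. The 15 bases that replace them were in 3.73% and 65.1%. Ebf4-205, a model with a retained intron, held 16.05% and 5.24%. Which of these proportions is typical of the tissue cannot be read from 2 libraries that disagree.

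Nfix also used starts far apart. The upstream start, near position 84800344, carried 51.3% of Nfix TPM in replicate 1 and 61.6% in replicate 2, and the start of Nfix-204 at 84773396 carried 44.7% and 34.7%. By counts the order was the other way, with 21.5% and 29.7% upstream and 75.9% and 67.5% on Nfix-204, whose 5476 bases make it the longest Nfix model. The upstream TPM includes Nfix-205, an incomplete model, at 2.72 and 3.49 TPM. Of complete Nfix coding TPM, 28.6% and 44.7% held the 27 upstream coding bases, and Nfix-204 held 65.5% and 49.9%. Nfix-204 stood at 3.82 and 3.97 TPM, the steadiest of the Nfix transcripts between the libraries among those above 1 TPM, and Nfix-202 at 1.64 and 2.92.

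In Nfic the leading transcript by TPM changed, from Nfic-204 in replicate 1 (32.55%, then 19.84%) to Nfic-203 in replicate 2 (31.35%, then 60.92%). Nfic-203 went from 1.09 TPM (bounds 0.958 to 1.2002) to 1.94 (bounds 1.82 to 2.05). The 48-base segment printed above was in 64.5% and 39.0% of complete Nfic coding TPM. By counts Nfic-203 led in both libraries.

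All 4 Ebf3 models begin in a single annotated start region, so the use of other starts could not be measured. The models differed in the 108-base exon. Models with that exon held 55.5% of Ebf3 TPM in replicate 1 and 42.3% in replicate 2 (48.9 ± 9.37), so forms of 587 codons and of 551 codons were both abundant. Ebf3-201, the form without it, led with 44.45% and 57.68%, and Ebf3-204 followed with 28.17% and 31.67%. Ebf3-203 fell from 17.71% to 2.46%. The 3 models that hold the exon share 1 coding sequence. Coding sequences came from GENCODE M21, in which Ebf3-201 has 4838 bases and Ebf3-202 has 3736, against 4886 and 5021 in the deposited tables. The deposited lengths of Ebf3-204 and Ebf3-201 differ by 108 bases, the length of the exon.

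In Nfib, a factor that is widely expressed in the newborn brain, Nfib-202 led with 65.77% and 62.51%. The coding sequence of this model has 420 codons and lacks 450 bases that are coding in Nfib-201, in 4 later exons. Some of these bases may lie outside the coding sequence of Nfib-202, since the models' lengths, 8429 and 8770 bases, differ by less. Nfib-201 has 570 codons and held 5.19% and 6.68%. The deposited shares thus place most Nfib RNA on the shorter coding form. Models with a retained intron held 19.44% and 16.48% of Nfib TPM, the highest share of TPM among the members in both libraries. By counts they held 9.24% and 7.41% of Nfib and 15.37% and 5.41% of Ebf4, so Ebf4 was highest in replicate 1. Because the RNA was not selected for poly(A) tails, unspliced RNA could be measured too, and its part in these shares was not tested.

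Ebf1 and Ebf2 were simpler. Ebf1-201 led with 64.28% and 56.33%, followed by Ebf1-202 with 17.85% and 26.07%. Apart from their ends, these models differ by 3 coding bases, present in 21.8% and 36.2% of complete Ebf1 coding TPM. Ebf2-203 led with 70.55% and 73.98%, and the 3 complete Ebf2 models share 1 coding sequence of 575 codons, so their differences lie outside it. The Nfia exon of 129 bases (chr4:98041551-98041679) was in 81.8% and 90.9% of complete Nfia coding TPM.

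The leading transcript by TPM was the same in both libraries in 6 of the 8 members, all but Nfic and Ebf4. Among detected genes with at least 4 transcripts, which all 8 members have, it was the same in 79.3%. The members' share is close to that background.

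**Figure D3:**
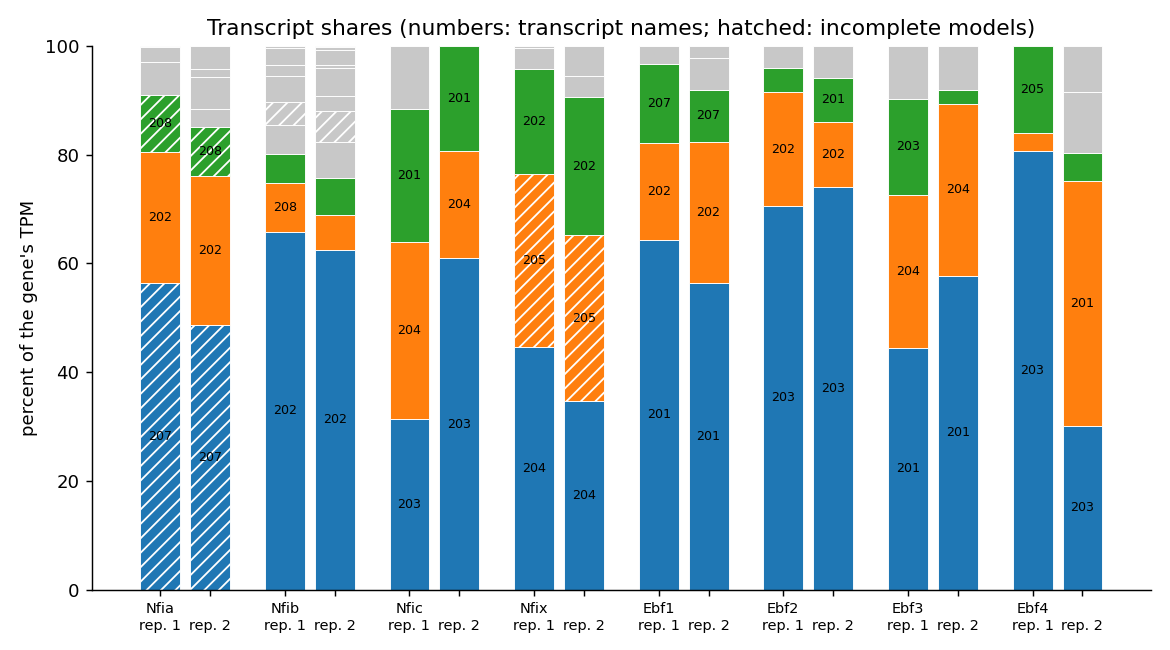
Percent of each gene's TPM on each transcript in replicate 1 and replicate 2 (stacked bars, 0 to 100%). The 3 leading transcripts are coloured and labelled by the number in their name where the share allows, the others are grey, and incomplete models are hatched. Ebf4 changes from 80.72% on Ebf4-203 to 30.15%, and the largest Nfia bar is an incomplete model.

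Promoter windows from RefSeq (GRCm38.p6) were found for 6 members, 10 windows in all, each of 300 bases. None was listed for Nfib or Ebf2. The 250 bases before the start are shown for the single annotated Ebf3 start (chr7:137314446-137314695, minus strand). The same is shown for the downstream Ebf4 start that gained share in replicate 2 (chr2:130295689-130295938, plus strand) and for the Nfix-204 start (chr8:84773411-84773660, minus strand). Capitals mark CG dinucleotides, whose density is known to distinguish classes of promoters.
Ebf3: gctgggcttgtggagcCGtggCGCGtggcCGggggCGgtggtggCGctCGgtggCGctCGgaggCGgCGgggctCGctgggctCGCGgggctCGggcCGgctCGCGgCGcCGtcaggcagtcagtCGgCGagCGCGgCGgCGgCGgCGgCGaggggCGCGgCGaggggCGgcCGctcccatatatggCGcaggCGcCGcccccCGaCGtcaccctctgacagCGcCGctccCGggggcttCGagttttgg
Ebf4: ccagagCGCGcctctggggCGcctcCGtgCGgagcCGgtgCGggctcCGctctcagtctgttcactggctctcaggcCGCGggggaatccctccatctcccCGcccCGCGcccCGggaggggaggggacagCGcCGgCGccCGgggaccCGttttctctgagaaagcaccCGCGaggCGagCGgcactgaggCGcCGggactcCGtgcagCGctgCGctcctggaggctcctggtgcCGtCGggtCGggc
Nfix: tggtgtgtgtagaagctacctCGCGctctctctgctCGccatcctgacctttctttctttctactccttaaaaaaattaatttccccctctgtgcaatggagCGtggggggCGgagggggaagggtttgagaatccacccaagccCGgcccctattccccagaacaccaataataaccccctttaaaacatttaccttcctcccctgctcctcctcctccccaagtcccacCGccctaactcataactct
The Ebf3 window held 43 CG dinucleotides and the Ebf4 window 31, where the median of all 32851 windows was 6. At least as many were found in 0.712% of windows for Ebf3 and 5.19% for Ebf4. The Nfix window held 7, and 46.3% of windows held at least as many.

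The windows were also searched on both strands, over their full 300 bases, for the binding elements of the families themselves. The whole NFI palindrome, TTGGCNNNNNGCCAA, was in none of the 10 windows and in 0.0365% of all windows. The EBF palindrome TCCCNNGGGA was in none of the 10 and in 0.904% of all. The NFI arm TTGGC alone, which is contained in the palindrome, was in 5 of 10 and in 46.7% of all, a share close to that background. A match here is a string of letters in a window and not a bound site.

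The libraries were then set against each other as the log2 ratio of replicate 2 over replicate 1, on estimated counts scaled by the trimmed mean of M values (TMM). All 4 NFI genes were above 0 and all 4 EBF genes below it, where 50.4% of 18554 genes were higher in replicate 2. Nfic was at 0.70, Nfix at 0.51, Nfia at 0.42 and Nfib at 0.15. Ebf1 was at −0.01, Ebf3 at −0.03, Ebf2 at −0.29 and Ebf4 at −0.43. The values for Ebf1 and Ebf3 are so near 0 that their sign carries little, and with 1 library on each side none of these differences has a replicate check.

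None of the 8 genes reached 2-fold, which 17% of the genes did, and 1 of 8, Nfic at 1.63-fold, reached 1.5-fold, which 27.7% did. A ratio at least as large as that of Nfic was seen in 23.5% of genes, and as that of Ebf4 in 35.8%. The directions were the same with DESeq2 size factors, with CPM (counts over the library total) and with spike-in scaling. On TPM as deposited, whose median over all genes was −0.25, only Nfix was above 0, and relative to that median the NFI genes were again above and, of the EBF genes, Ebf1 was above as well. On that scale Nfic was at −0.12 where its scaled counts gave 0.70. The deposited effective length of Nfic, which TPM corrects for, was 3089 bases in replicate 1 and 4492 in replicate 2.

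**Figure D4:**
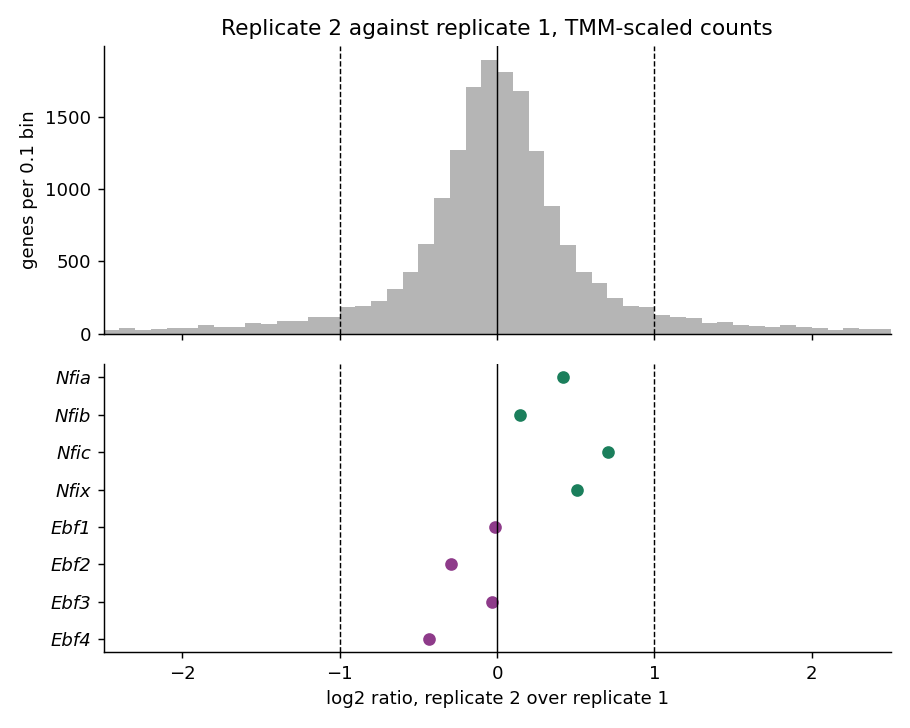
Upper panel: number of genes per 0.1 bin of the log2 ratio, replicate 2 over replicate 1, on TMM-scaled counts; genes beyond the axis ends are not drawn. Lower panel: the 8 members on the same axis, NFI in green and EBF in purple, with dashed lines at 2-fold; all 8 lie inside them, from −0.43 (Ebf4) to 0.70 (Nfic).

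Marker genes of other regions and cell types moved between the libraries too, and their part in the values above was not tested. The midbrain markers were present: En1, En2, Otx2, Meis2, Pax7 and Gata3 were detected, 6 of 6, at a median of 9.12 TPM in replicate 1 and 9.43 in replicate 2. None of 4 hindbrain Hox genes was detected in both libraries, but their summed level was 0.59 TPM in replicate 1, with Hoxd3 at 0, and 6.31 in replicate 2. The 5 cerebellar markers summed to 25.1 and 40.5 TPM, and the 5 choroid plexus markers to 17.4 and 169.55, of which Ttr gave 14.43 and 162.57. The 5 oligodendrocyte lineage markers were all higher in replicate 2, at a median log2 ratio of 0.42, where 50.4% of all genes compared were higher.

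Markers of vessels and coverings had medians below 0. The 4 endothelial markers summed to 52.3 and 35.7 TPM (1 of 4 higher in replicate 2, median log2 ratio −0.24), the 6 mural cell markers to 48.6 and 38.7 (1 of 6, −0.14) and the 6 meningeal fibroblast markers to 89.2 and 70.0 (2 of 6, −0.12). The 4 erythroid markers were all higher in replicate 2, at a median of 0.73, where 50.4% of all genes compared were higher. Neuronal, radial glial and microglial lists had medians of 0.12, 0.06 and 0.07.

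Partners of the NFI and EBF factors and genes linked to them were read from 8 lists. Of their 65 measured members 41 were detected, where 53.8% of protein-coding genes were. All 8 regulators and partners of NFI factors were detected, at a median of 7.97 TPM in replicate 1 and 8.92 in replicate 2. The 4 highest were Hes5, a Notch target, at 24.48 and 20.27 TPM (22.4 ± 2.98), Ski, a corepressor that binds NFI proteins, at 12.74 and 11.56 (12.2 ± 0.834), Notch1 at 10.42 and 12.01 (11.2 ± 1.12), and Olig2 at 7.94 and 11.16 (9.55 ± 2.28).

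All 14 astrocyte genes were detected, where 53.8% of protein-coding genes were, at a median of 22.1 and 20.7 TPM. Of the 14, 12 were higher in replicate 2 (median log2 ratio 0.31), where 50.4% of all genes compared were. Fabp7, which encodes a lipid-binding protein of radial glia, was the highest at 218.06 and 131.49 TPM (175 ± 61.2), and was 1 of the 2 that were lower in replicate 2. Glul, glutamine synthetase, stood at 66.81 and 60.61 (63.7 ± 4.38), Aldoc, an aldolase, at 56.47 and 65.92 (61.2 ± 6.68), and Slc1a3, a glutamate transporter, at 35.32 and 35.70 (35.5 ± 0.269). Of 4 genes known as NFI targets in cerebellar granule neurons, Cdh2 stood at 28.41 and 22.60 TPM, Cntn2 at 11.81 and 12.70 and Etv1 at 4.18 and 2.92. Gabra6, a marker of mature granule neurons, was at 0 and 0.14 TPM, from 0 and 25 counts.

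All 6 EBF partners were detected, where 53.8% of protein-coding genes were. Zfp423, a zinc-finger protein that binds EBF proteins, stood at 11.43 and 10.55 TPM (10.99 ± 0.622) and its relative Zfp521 at 7.79 and 7.19 (7.49 ± 0.424). The E proteins Tcf3, Tcf4 and Tcf12, the general partners of proneural factors, were at 14.85 and 16.72, 10.64 and 12.95, and 14.83 and 22.12 TPM, and Cnot3, a deadenylase subunit, at 2.89 and 4.78. All 6 had a log2 ratio above 0, with a median of 0.17, where 50.4% of all genes compared were above 0.

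The neurogenic factors were, as a list, near the background of protein-coding genes, and not all of them are known to act above EBF genes. Of 12 neurogenic factors 6 were detected, where 53.8% of protein-coding genes were. The list median was 1.16 TPM in replicate 1 and 1.79 in replicate 2, against 1.91 and 1.61 for protein-coding genes. Insm1 was the highest at 2.97 and 3.78 TPM (3.38 ± 0.573), then Nhlh2 at 3.38 and 2.66 (3.02 ± 0.509), and Nr4a2, a dopamine neuron factor, at 2.70 and 2.68 (2.69 ± 0.0141). Neurog1 was at 0 counts in both libraries, Neurog2 at 0.21 and 0.42 TPM, Neurod4 at 0.10 and 0.14, and Nhlh1 at 0.08 and 0.66. A count of 0 allows up to 3 counts, or 0.0650 CPM in replicate 1 and 0.0417 in replicate 2.

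Genes linked to EBF factors in other tissues were mostly at or near 0. None of 9 B lineage genes was detected, where 53.8% of protein-coding genes were. Cd79b had 28 and 11 counts, Rag1 45 and 49, Pou2af1 16 and 10, Cd79a 8 and 8 and Igll1 1 and 0. Vpreb1, Vpreb3 and Blk had none. Of 6 adipocyte genes only Prdm16, which is also known in neural stem cells, was detected, at 2.86 and 1.96 TPM. Cebpa stood at 0.82 and 2.07, Pparg at 0.01 and 0.14, Ucp1 at 0.11 and 0.01 and Plin1 at 0.01 and 0, and Adipoq was at 0 counts. Ebf1 and Ebf2 RNA was thus measured where the B lineage genes and all but 2 of the adipocyte genes were below 1 TPM.

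Of 6 genes of olfactory neurons, another EBF-expressing cell type, 3 were detected, close to the share of protein-coding genes (53.8%). Gnal stood at 21.80 and 17.02 TPM, Gng13 at 7.34 and 7.75 from 43 and 74 counts, and Adcy3 at 7.86 and 7.10, and all 3 are known to be expressed outside the nose. Omp, the defining olfactory marker, was at 0.12 and 0.10 TPM, Ano2 at 0.17 and 0.13 and Cnga2 at 0 and 0.11.

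**Figure D5:**
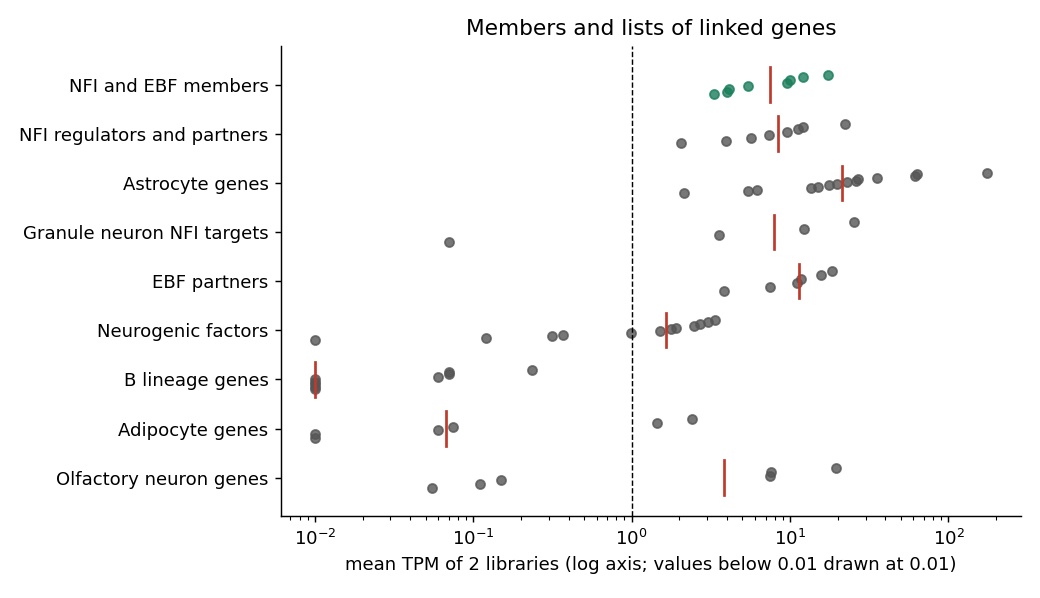
Mean TPM of 2 libraries (horizontal log axis) for the members (green) and for each gene of 8 lists of linked genes (grey), with the median of each list in red and the detection level of 1 TPM as a dashed line. Astrocyte genes lie highest, B lineage genes lowest, and all 8 members lie above the line.

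The members lie in large genes with other transcription units inside or beside them. Their spans ran from 59.45 kb (Nfic) to 415.578 kb (Nfib). The annotation overlaps 18 genes with them, of which 15 were measured, 14 on the opposite strand. Of these 14, 10 were at 0 counts in both libraries: n-R5s188, Gm11268, Gm11269, G430095P16Rik, Gm12158, Gm23178, Gm6878, 1700120O09Rik, 4930438E09Rik and Gm10860. E130114P18Rik, opposite Nfia, stood at 1.80 and 2.47 TPM (2.14 ± 0.474), and Lyl1, a blood transcription factor gene opposite Nfix, at 1.02 and 0.85 (0.935 ± 0.120). Gm11266, opposite Nfib, was at 0.64 in both, and Gm16104, opposite Nfic, at 0.22 and 0 from 2 and 0 counts. The libraries were stranded, but the strand setting of the authors' counting is not given in the sources used here. Reads of these pairs may therefore not be fully separated. Among the overlapping genes not measured were Gm45278 and Gm10578, opposite Ebf3. The span of Gm45278 (chr7:137198488-137201722) covers the 108-base Ebf3 exon, and its part in the share of that exon was not tested.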

How the data were processed

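Gene and transcript tables of both libraries were used. Per the labels and the deposited notes, quantification was on mm10 with GENCODE M4. The aligner and quantification program: not given in the sources used here. Deposited by the authors were estimated counts (expected counts, which need not be whole), TPM, posterior mean TPM, FPKM, the percent of a gene's TPM on each transcript, and credibility bounds of TPM, recorded here as a signal. Symbols, transcript models and coordinates came from GENCODE M21 on the same assembly, which matched 42462 of 43346 genes. Of 55 transcripts of the 8 genes, 53 had the same length in M21, all but Ebf3-201 and Ebf3-202.

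Levels are means and SDs of TPM (n = 2). Detection was a TPM of at least 1 in both libraries. Pairs used log2(TPM + 0.1). Ratios between libraries used counts rounded to whole numbers and summing to at least 10, scaled by TMM in edgeR 4.0.16, or by DESeq2 1.42.0 size factors, CPM or 24 spike-ins (R 4.3.3). The script was tested on simulated data. A count of 0 allows up to 3 counts by counting error alone, and reads lacking molecular identifiers need not be separate molecules. The libraries differed by more than sampling noise (chi-square 51.4 per degree of freedom over 18547 genes), so they are not 1 library deposited again. Start sites were annotated 5′ ends chained within 500 bases.

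The members and lists were chosen with earlier results of these data known. Of each list the text names all genes where at most 6 were measured, otherwise the 4 with the highest mean TPM and those below 1 TPM in both libraries. Some genes that this rule names are not reported here. Protein sequences were not used here. Alternatives were other pseudocounts, detection levels, folds and scalings, FPKM, posterior mean TPM, protein-coding transcripts only, and, chosen after seeing the data, complete transcripts only and counts per kilobase of joined exons.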

Additional observations from a re-analysis of the deposited data

How the results depend on the processing

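All 8 members were detected at 1 TPM, and 4 of 8 at 5 TPM. The log2 ratio of the NFI to the EBF sum was 0.21. It turned to −0.36 on complete protein-coding transcripts and to −0.22 on counts per kilobase of joined exons, both chosen after seeing the data, and the single libraries ranged from −0.0199 to 0.43. Of 28 pairs, 11 were called; 6 were on counts per kilobase, 8 on complete transcripts, 10 with a pseudocount of 1, 14 on posterior means and 14 on protein-coding transcripts. No member passed 2-fold between the libraries, and 1 passed 1.5-fold. Of the 65 genes of the related lists, 41 were detected at 1 TPM and 27 at 5 TPM. The median level of the members was 7.51 TPM. It was 13.4 as FPKM, which is another unit, 7.72 on posterior means, 7.0025 on protein-coding transcripts and 4.26 on complete transcripts, and 7.18 to 7.22 in the single libraries. The level of a member moved by more than its SD in 5 of 8 genes on complete transcripts, in 3 of 8 on protein-coding transcripts and in 1 of 8 on posterior means. No paired analysis was possible because the labels give 1 group. Depth limits single transcripts rather than genes: every member held at least 822 counts in each library.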
